A study of Mus musculus with 6 samples.

Results

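The genes described here are 10 costimulatory and co-inhibitory genes of mouse Th1 cells: the receptors Cd28 and Icos, the B7-type ligands Cd80, Cd86, Cd274 and Pdcd1lg2, the nectin-binding receptors Cd226 and Cd96, and the surface proteins Cd200 and Cd83. They are 10 of the 54532 genes listed in the count table, found by their gene symbols, and all 10 passed the filter on low counts that left 15938 genes for testing. Of these, 9 were listed by family membership, whereas Cd83 was chosen by its strong fall in these same libraries, so its change is given as a description without a test. The 9 others were also drawn up with earlier results of these libraries known, and their p-values give no independent support.

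The study asked how blocking the glycine transporter GlyT1 with ALX-5407 affects CD4+ T cells that are differentiated toward the Th1 state. RNA-seq was performed on 3 libraries of Th1 cells cultured with ALX-5407 and 3 libraries of Th1 cells cultured with the DMSO vehicle. The CD4+ T cells came from spleens of male C57BL/6 mice aged 6 to 8 weeks, were purified by negative bead selection, and were activated on plate-bound anti-CD3ε with anti-CD28, IL-2, IL-12 and an IL-4-blocking antibody in the medium. Both groups therefore shared a CD28 agonist and the Th1 cytokine mix and carried no altered allele. The groups, called Th1 and ALX-5407 below, differed in 500 nM of the inhibitor. The labels give 72 h under the Th1 condition, with ALX-5407 treatment in the treated group. The study's methods name 0.1% DMSO as the vehicle and an exposure to the inhibitor shorter than 72 h. The labels call the libraries biological replicates but do not say that they came from separate animals, so p-values measure the spread between these libraries.

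T cells need a costimulatory signal beside that of the antigen receptor. CD28 gives this signal when it binds CD80 or CD86 on the partner cell, and the inhibitory receptor CTLA-4 competes for the same ligands. ICOS is a related receptor that is induced after activation. CD274 (PD-L1) and PDCD1LG2 (PD-L2) bind the inhibitory receptor PD-1. CD226 and CD96 bind ligands of the nectin family, CD226 as an activating receptor. CD200 binds the inhibitory receptor CD200R on myeloid cells, and CD83 is a surface marker of mature dendritic cells and of activated lymphocytes. T cells carry several of these ligands themselves once activated.

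CD28 and ICOS signal through a short cytoplasmic motif that recruits phosphatidylinositol 3-kinase. It consists of a tyrosine, a methionine, any residue and another methionine. The coding stretches that hold this motif are shown because Cd28 and Icos are set side by side below. No result was drawn from these sequences. In both transcripts the stretch lies in exon 4 of 4, in Cd28 at chr1:60769663-60769734 and in Icos at chr1:60995530-60995601 on the plus strand of GRCm38, and the capitals mark codons 189 to 192 of 218 in Cd28 and codons 181 to 184 of 223 in Icos, in the transcripts of GENCODE M21.
Cd28: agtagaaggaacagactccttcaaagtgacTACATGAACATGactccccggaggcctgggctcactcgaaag
Icos: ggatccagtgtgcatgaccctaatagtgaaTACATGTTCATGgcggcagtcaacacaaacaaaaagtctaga

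Of the 10 genes, 4 lie on chromosome 16, namely Cd80, Cd86, Cd96 and Cd200. Cd80, Cd96 and Cd200 were lower with ALX-5407, and so were Cd226 and Cd83 on other chromosomes. Over all genes tested, 23.2% were lower at an adjusted p of 0.05 (edgeR), and nothing is read from the shared chromosome. RefSeq promoter windows on GRCm38.p6, which run from 250 bases before to 50 bases after the annotated start, are shown for Cd80, Cd96 and Cd200. No window was used for Cd86. The windows are Cd80 at chr16:38458683-38458982 on the plus strand, and Cd96 at chr16:46120199-46120498 and Cd200 at chr16:45409004-45409303 on the minus strand. Capitals mark matches on either strand to the AP-1 motif TGANTCA or to the interferon-gamma-activated sequence (GAS) motif TTCNNNGAA, and a 10-letter NF-kB consensus was searched as well.
Cd80: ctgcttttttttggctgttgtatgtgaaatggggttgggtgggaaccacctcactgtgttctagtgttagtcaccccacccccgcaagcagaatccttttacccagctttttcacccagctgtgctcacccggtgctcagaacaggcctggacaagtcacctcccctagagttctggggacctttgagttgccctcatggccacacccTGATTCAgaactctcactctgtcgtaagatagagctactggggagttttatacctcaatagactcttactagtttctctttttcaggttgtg
Cd96: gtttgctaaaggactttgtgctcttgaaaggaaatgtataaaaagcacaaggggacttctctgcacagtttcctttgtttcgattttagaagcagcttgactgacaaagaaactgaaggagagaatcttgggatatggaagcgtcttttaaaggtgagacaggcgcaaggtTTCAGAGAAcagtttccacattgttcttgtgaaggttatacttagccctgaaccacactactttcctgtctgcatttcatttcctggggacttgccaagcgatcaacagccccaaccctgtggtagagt
Cd200: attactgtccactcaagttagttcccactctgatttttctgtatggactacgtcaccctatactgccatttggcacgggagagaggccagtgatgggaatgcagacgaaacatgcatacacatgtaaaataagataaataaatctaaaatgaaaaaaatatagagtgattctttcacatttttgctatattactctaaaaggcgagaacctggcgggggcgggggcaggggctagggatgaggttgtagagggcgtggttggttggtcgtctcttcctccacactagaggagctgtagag
The Cd80 window held 1 AP-1 match that begins 42 bases before its RefSeq start. This window lies inside the Cd80 gene span of chr16:38455561-38496335, so its start is not the first base of that span. The Cd96 window held 1 GAS match that begins 79 bases before its start, and the Cd200 window held no match to the 3 motifs. Among 32851 windows of the same length, 7.808% held an AP-1 match, 8.298% a GAS match and 8.459% an NF-kB match. Windows were used for 5 of the 10 genes, and of the other 2, Pdcd1lg2 held 1 NF-kB match that begins 244 bases before its start and Cd274 held no match.

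The libraries held 30801753 to 36727788 counts, so that 1 read corresponded to about 0.0268 to 0.0325 CPM (read counts relative to the TMM-scaled library size). Pairs of replicates differed by 5.65 to 22.4 times the sampling noise per degree of freedom in a chi-square comparison, so no library was a copy of another. The cells carried T cell transcripts, with 10 T cell markers summing to 3220 to 3684 CPM in Th1 and 3012 to 3203 CPM in ALX-5407. Of these 10, 2 rose and 4 fell at an adjusted p of 0.05 (edgeR), beside 24.5% and 23.2% of all genes tested. Thy1 and Cd5 rose, with calls lost without ALX-5407 replicate 1 and without ALX-5407 replicate 2, respectively. Cd3d, Cd3g, Cd2 and Cd4 fell, Cd4 with a log2 fold change of -0.46. Cd3e, Cd247, Trac and Lat did not pass the test. Slc6a9, the gene for GlyT1, the protein that the drug inhibits, stood at 6.18 ± 1.25 CPM (SD, n = 3) in Th1 and 15.8 ± 1.14 CPM (n = 3) in ALX-5407, a log2 fold change of 1.35 ± 0.146 (SE) with an adjusted p of 1.49e-06 (edgeR quasi-likelihood F test, Benjamini-Hochberg over all genes tested). All adjusted p-values below come from this same fit.

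With ALX-5407, Cd28 and Pdcd1lg2 rose and Cd80, Cd226, Cd96 and Cd200 fell. Of the 9 genes listed by family, 6 passed an adjusted p of 0.05, where 47.7% of all genes tested passed it. Cd28 and Pdcd1lg2 were the 2 higher members, beside 24.5% of all genes, and the 4 lower members stand beside 23.2% of all genes. Changes of more than 2-fold that passed the test were found in 2 of the 9, Cd80 and Cd200, where 10% of all genes had one. The CPM of the 2 groups did not overlap in 7 of the 9, the 6 called genes and Cd274, and this was so for 55.5% of all genes tested. Since the members were listed with the contrast known, nothing is read from these counts. The median log2 fold change over all genes tested was 0.0053. In these bulk libraries, fewer cells with a transcript and less of it per cell cannot be told apart.

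**Figure D1:**
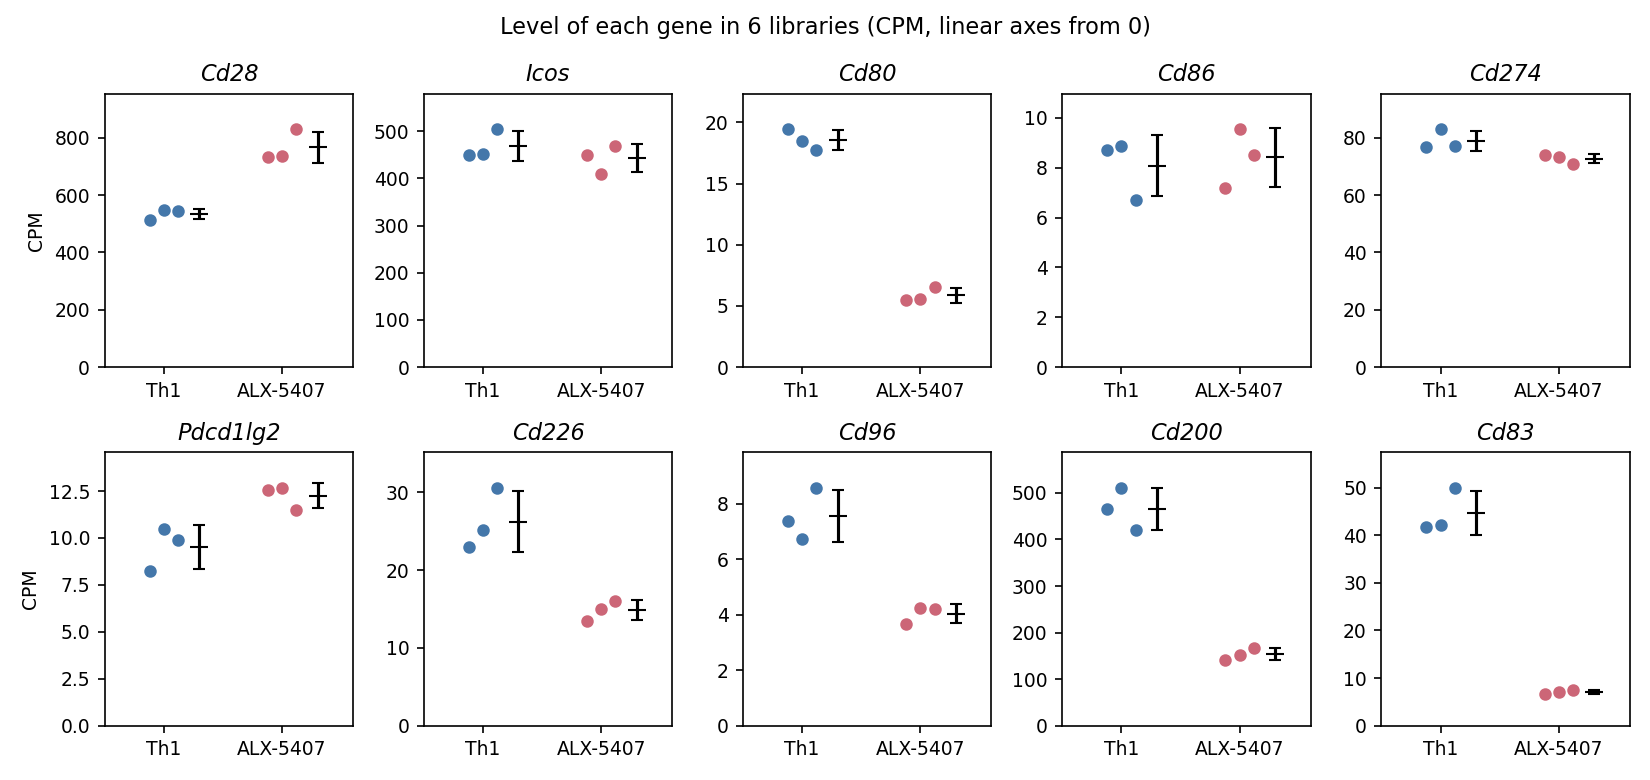
CPM of each of the 10 genes in the 6 libraries, on linear axes from 0, with 1 blue point per Th1 library, 1 red point per ALX-5407 library, and the mean and SD of each group in black. The groups overlap for Icos and Cd86 and are apart for the other 8 genes, with Cd83 shown as a description because it was chosen by its fall.

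Of the CD28-type receptors, Cd28 rose and the difference in Icos did not pass the test. Cd28 (chr1:60716800-60773359, plus strand), the main costimulatory receptor of T cells, was measured at 514, 547 and 544 CPM in the 3 Th1 libraries and at 732, 738 and 829.7 CPM in the 3 ALX-5407 libraries. Every ALX-5407 library was above every Th1 library. Cd28 rose 1.43-fold, from 535 ± 17.97 CPM (SD, n = 3) to 766 ± 54.9 CPM (n = 3), a log2 fold change of 0.52 ± 0.0734 (SE) with an adjusted p of 2.44e-05 (edgeR).

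Icos (chr1:60977927-61000320, plus strand), the inducible receptor of the same family, was at 449, 452 and 504 CPM in Th1 and at 449.6, 411 and 468 CPM in ALX-5407. The groups overlapped, with the highest value in a Th1 library and the lowest in an ALX-5407 library. The log2 difference was -0.08 ± 0.0763 (SE), its 95% interval ran from -0.24 to 0.08, and the adjusted p was 0.412 (edgeR). The ratio of Cd28 to Icos per length was 0.642, 0.678 and 0.604 in Th1 and 0.912, 1.01 and 0.992 in ALX-5407, without overlap. An exact permutation test of 3 libraries against 3 cannot give a p below 0.1, so ratios are given as values.

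Ctla4, whose product competes with CD28 for CD80 and CD86, lies between Cd28 and Icos and was the nearest tested protein-coding gene to both. It fell from 979 ± 8.65 CPM (SD, n = 3) to 714 ± 74.7 CPM (n = 3), a log2 fold change of -0.46 with an adjusted p of 0.00018 (edgeR). Raph1 beyond Cd28 and Pard3b beyond Icos did not pass the test. Gm37039, which is not annotated as protein-coding, overlaps the Icos span on the same strand but shares 0 exon bases with Icos. Its raw counts were 305, 306 and 370 in the Th1 libraries and 540, 453 and 454 in the ALX-5407 libraries. The 3 family genes of this locus thus included 1 that rose, 1 that fell and 1 whose difference did not pass the test.

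Of the CD28 ligands, Cd80 fell and the difference in Cd86 did not pass the test. Cd80 (chr16:38455561-38496335, plus strand) was measured at 19.4, 18.5 and 17.8 CPM in Th1 and at 5.49, 5.58 and 6.59 CPM in ALX-5407. The lowest Th1 library was above the highest ALX-5407 library. The fall was 3.15-fold, with a log2 fold change of -1.66 ± 0.121 (SE), a 95% interval of -1.91 to -1.40 and an adjusted p of 2.54e-08 (edgeR).

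Cd86 (chr16:36603869-36666081, minus strand) was low in all 6 libraries, at 8.69, 8.87 and 6.69 CPM in Th1 and 7.19, 9.54 and 8.499 CPM in ALX-5407. The groups overlapped over most of their range. The log2 difference was 0.06 ± 0.152 (SE) with a 95% interval of -0.27 to 0.38 and an adjusted p of 0.787 (edgeR). This interval does not overlap that of Cd80. Per length, Cd80 was at 2.30 ± 0.293 (SD, n = 3) times Cd86 in Th1 and at 0.700 ± 0.106 times Cd86 in ALX-5407, so the order of these ligands was the opposite in the treated libraries. The levels of both together went from 7.22 ± 0.524 to 3.89 ± 0.380 CPM per kb.

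The PD-1 ligands are neighbours on chromosome 19. Cd274 (chr19:29367455-29388095, plus strand), which encodes PD-L1, was at 76.6, 82.99 and 77.0 CPM in Th1 and at 74.0, 73.2 and 70.9 CPM in ALX-5407. The ALX-5407 libraries were all slightly below the Th1 libraries. The log2 difference of -0.12 ± 0.0711 (SE) did not pass the test, with a 95% interval of -0.27 to 0.03 and an adjusted p of 0.191 (edgeR). Of its exon bases, 511 or 14.1% overlap an antisense gene in the GENCODE annotation, and the strand setting of the counting is not given in the sources used here.

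Pdcd1lg2 (chr19:29410919-29471157, plus strand), which encodes PD-L2, was at 8.23, 10.5 and 9.88 CPM in Th1 and at 12.6, 12.7 and 11.5 CPM in ALX-5407. All ALX-5407 libraries were above the Th1 libraries, by a small margin at the nearest pair. The rise was 1.29-fold, with a log2 fold change of 0.36 ± 0.126 (SE) and an adjusted p of 0.0254 (edgeR). This call was lost with upper quartile scaling (adjusted p = 0.0542) and without Th1 replicate 1 (0.132), ALX-5407 replicate 1 (0.067) or ALX-5407 replicate 2 (0.0748), each from edgeR.

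Per length, Cd274 was at 3.79 ± 0.381 (SD, n = 3) times Pdcd1lg2 in Th1 and at 2.70 ± 0.0933 times in ALX-5407. Their summed level was 27.6 ± 1.58 CPM per kb in Th1 and 27.5 ± 0.824 CPM per kb in ALX-5407. The PD-1 ligands made up 77.4%, 79.8% and 80.4% of the summed level of the 4 ligands in the Th1 libraries and 89.1%, 87.2% and 86.6% in the ALX-5407 libraries. The sum over the 4 ligands itself went from 34.8 ± 1.64 to 31.4 ± 0.686 CPM per kb.

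**Figure D2:**
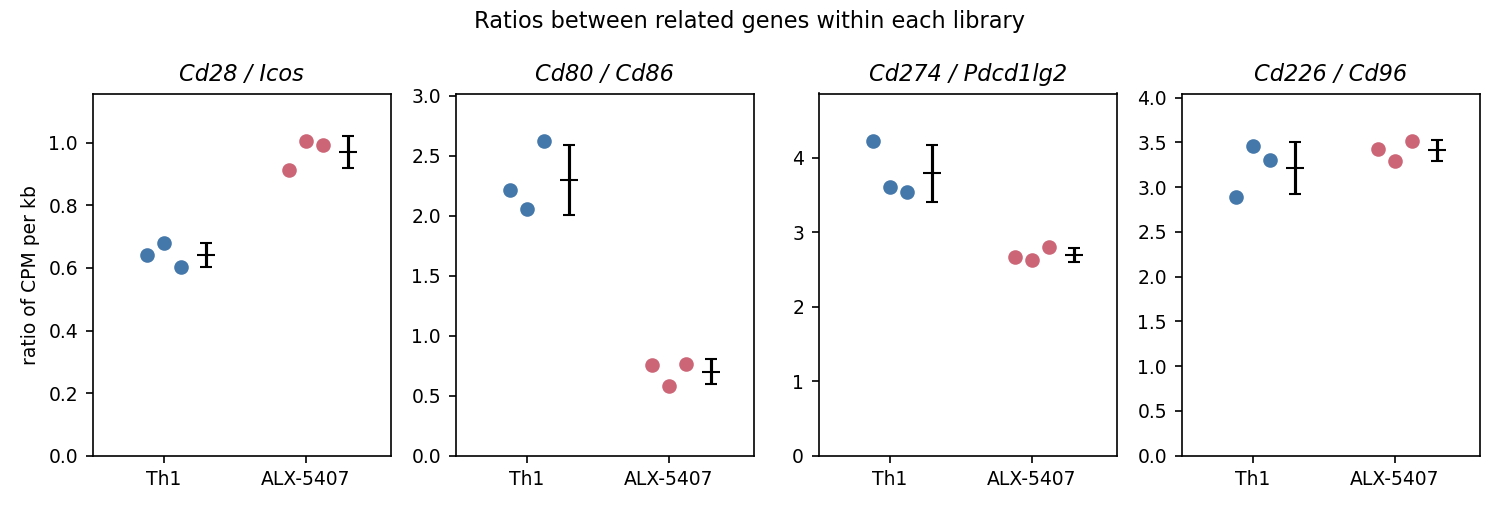
Ratios of paired members within each library, calculated from CPM per kb on axes from 0, with 1 point per library for Th1 (blue) and ALX-5407 (red) and the mean and SD of each group in black. Cd28 over Icos is higher in every ALX-5407 library, Cd80 over Cd86 and Cd274 over Pdcd1lg2 are lower, and Cd226 over Cd96 overlaps between the groups.

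Both nectin-binding receptors fell. Cd226 on chromosome 18, the activating receptor also called DNAM-1, was at 23.0, 25.1 and 30.6 CPM in Th1 and at 13.5, 15.0 and 16.0 CPM in ALX-5407. Th1 replicate 3 was the highest library, and the groups did not overlap. The log2 fold change was -0.82 ± 0.116 (SE), a 1.76-fold fall, with an adjusted p of 2.5e-05 (edgeR).

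Cd96 (chr16:46035657-46120251, minus strand), which binds the same ligand family, was at 7.37, 6.73 and 8.58 CPM in Th1 and at 3.65, 4.24 and 4.22 CPM in ALX-5407. Again the groups did not overlap and Th1 replicate 3 was highest. The log2 fold change was -0.90 ± 0.159 (SE), a 1.87-fold fall, with an adjusted p of 0.000193 (edgeR). The ratio of Cd226 to Cd96 per length was 3.22 ± 0.294 (SD, n = 3) in Th1 and 3.41 ± 0.115 in ALX-5407, with overlapping values. The difference between the falls of these receptors was not tested. Rttn, next to Cd226, rose by 0.61 on the log2 scale, while the neighbours Tmx3 of Cd226, Plcxd2 and Gm4737 of Cd96, Adprh and Timmdc1 of Cd80, and Casr and Ildr1 of Cd86 did not pass the test.

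Cd200 (chr16:45382135-45409053, minus strand), an immunoglobulin-family surface protein that acts on myeloid cells through its receptor, was among the most abundant members in Th1. It was at 465, 511 and 420.5 CPM in Th1 and at 141, 153 and 167 CPM in ALX-5407. The spread within each group was small beside the gap between the groups. Cd200 fell 3.03-fold, from 466 ± 45.4 CPM (SD, n = 3) to 154 ± 13.3 CPM (n = 3), a log2 fold change of -1.60 ± 0.0870 (SE) with an adjusted p of 1.12e-09 (edgeR). Of its tested neighbours, Btla, an inhibitory receptor for HVEM that lies 124.5 kb away at lower coordinates, fell from 298 ± 47.4 to 140.3 ± 11.97 CPM, with a log2 fold change of -1.09 and an adjusted p of 2.55e-07 (edgeR). Abhd10, 321 kb away at higher coordinates, was at 6.68 ± 1.23 CPM in Th1 and 8.497 ± 1.19 CPM in ALX-5407, a log2 difference of 0.35 with an adjusted p of 0.0888 (edgeR).

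Cd83 (chr13:43784775-43803132, plus strand) was selected on its fall and its values are a description. It was measured at 41.7, 42.2 and 50.01 CPM in Th1 and at 6.60, 6.996 and 7.59 CPM in ALX-5407. The raw counts were 1359, 1323 and 1539 in Th1 and 233, 261 and 266 in ALX-5407, so the lower level rested on at least 233 reads in each library. The fall was 6.32-fold, with a log2 fold change of -2.66 ± 0.107 (SE), and 75 of the 15938 genes tested had a lower log2 fold change. Its neighbour Mcur1 was at 23.9 ± 2.70 CPM (SD, n = 3) in Th1 and 22.9 ± 1.22 CPM in ALX-5407, with an adjusted p of 0.63 (edgeR). The tested neighbour on the other side, Jarid2, which encodes a Polycomb-associated protein and lies 926 kb away, fell from 359 ± 9.25 to 213 ± 6.77 CPM, a log2 fold change of -0.75 with an adjusted p of 2.22e-07 (edgeR).

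The 5 genes whose centred log2 CPM over the 6 libraries lay nearest that of Cd83 were Serpinb5, Cdh17, Stom, Pdpn and Gm47662, among 12116 candidates with a mean of at least 50 counts. Their root mean square differences from Cd83 were 0.0963, 0.106, 0.138, 0.141 and 0.142 on the log2 scale. Serpinb5 went from 109 ± 14.2 CPM (SD, n = 3) to 15.7 ± 0.946 CPM, and Stom, which encodes the membrane protein stomatin, from 97.5 ± 4.49 to 17.3 ± 0.912 CPM. These genes were matched on the same 6 libraries and the likeness is a description.

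**Figure D3:**
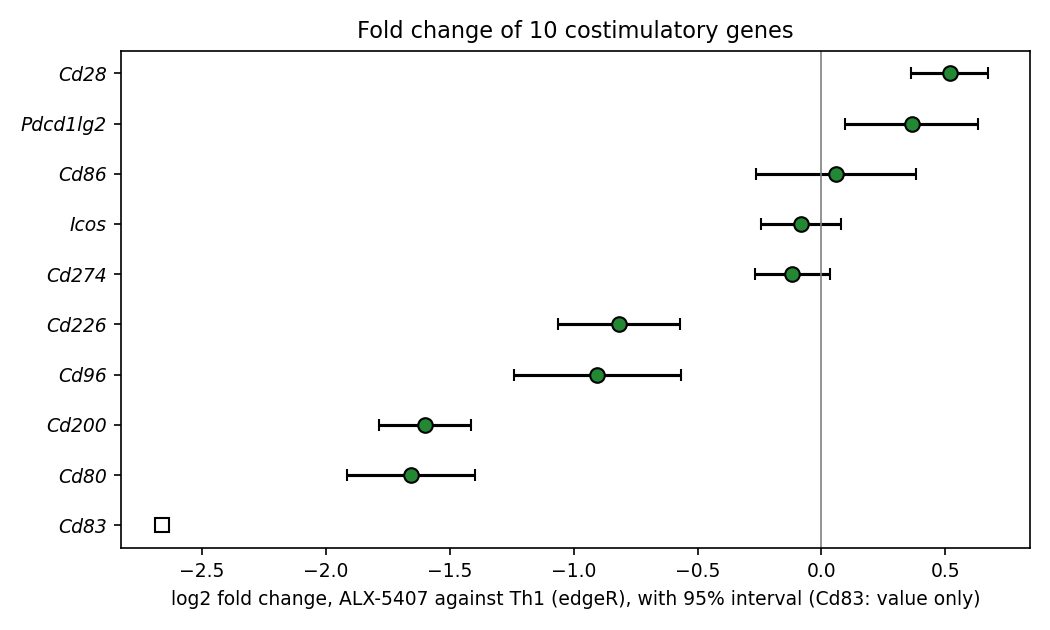
Log2 fold change of ALX-5407 against Th1 for the 10 genes, with green circles and 95% intervals from the edgeR fit for the 9 genes listed by family, and an open square without an interval for Cd83, which was chosen by its fall. The intervals of Icos, Cd86 and Cd274 include 0, those of Cd28 and Pdcd1lg2 lie above it, and those of Cd80, Cd226, Cd96 and Cd200 lie below it.

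To compare levels between genes, CPM were divided by the gene length given in the count table. In Th1, Cd200 and Icos led with 140.2 ± 13.7 and 137 ± 9.14 CPM per kb (SD, n = 3) and overlapped each other, followed by Cd28 at 87.4 ± 2.94 CPM per kb. Cd274 at 21.8 CPM per kb, Cd83 at 17.4 and Cd226 at 11.1 formed a middle range without overlap between neighbours. Pdcd1lg2 at 5.79 CPM per kb and Cd80 at 5.01 overlapped, and Cd96 at 3.46 and Cd86 at 2.21 were lowest.

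In ALX-5407, Icos at 129 ± 8.61 CPM per kb and Cd28 at 125 ± 8.96 CPM per kb led and overlapped. Cd200 followed at 46.3 ± 4.02 CPM per kb and Cd274 at 20.1 ± 0.436. Pdcd1lg2 at 7.45 CPM per kb was above Cd226 at 6.30, the reverse of their order in Th1. Cd83 at 2.75 CPM per kb overlapped Cd86 at 2.30, and Cd96 at 1.85 overlapped Cd80 at 1.59, which was last of the 10. The lengths of Pdcd1lg2 and Cd226 in the count table are shorter than their merged exons in GENCODE M21, 1645 against 1961 and 2357 against 4891 bases, so their levels per length depend on the annotation used.

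**Figure D4:**
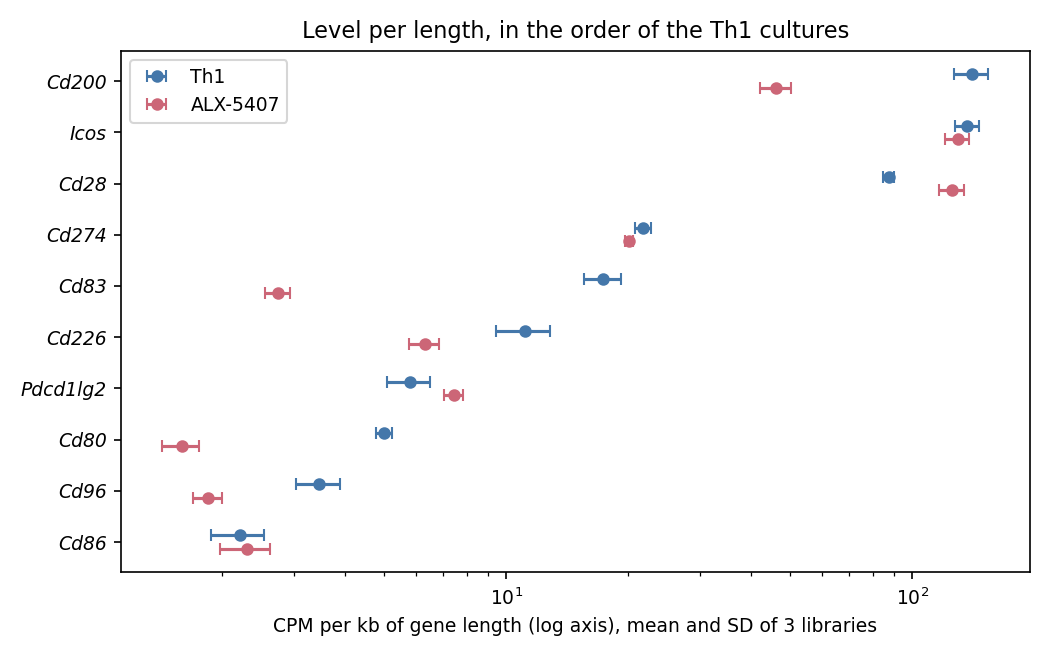
Level of each of the 10 genes in CPM per kb of gene length, on a log axis, with the mean and SD of the 3 Th1 libraries in blue and of the 3 ALX-5407 libraries in red, in the order of the Th1 levels. Cd200, Icos and Cd28 are highest in both groups, and Cd200, Cd83 and Cd80 stand lower in the order in ALX-5407 than in Th1.

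The wider pathway was described with 7 lists of partner genes, of which 75 were tested and 29 rose and 18 fell. Over all genes tested, 24.5% rose and 23.2% fell, and each list's count below stands beside these shares. In the rest of the CD28 and B7 families, 6 of 11 genes were tested, 2 rose, 3 fell and the median log2 fold change was -0.31. Beside Ctla4 and Btla, Pdcd1, which encodes the inhibitory receptor PD-1, fell from 28.8 ± 0.722 CPM (SD, n = 3) to 20.05 ± 1.37 CPM, a log2 fold change of -0.52 with an adjusted p of 0.00018 (edgeR). Vsir, which encodes the inhibitory protein VISTA, rose by 0.24 on the log2 scale (adjusted p = 0.0122, edgeR), a call lost without ALX-5407 replicate 2 (adjusted p = 0.0594). Icosl, the ligand of ICOS, rose from a low level, at 1.03 ± 0.552 CPM in Th1 and 2.23 ± 0.120 CPM in ALX-5407, a log2 fold change of 1.11 with an adjusted p of 0.0141 (edgeR).

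Among the nectin receptors and ligands, 7 of 9 genes were tested, 1 rose, 1 fell and the median log2 fold change was -0.0053, with a range of -0.21 to 0.06 over the alternative settings. Crtam, a receptor of activated T cells for a nectin-like ligand, fell from 24.7 ± 1.04 to 8.71 ± 1.38 CPM (SD, n = 3), with a log2 fold change of -1.50 and an adjusted p of 6.42e-08 (edgeR). Nectin2, a ligand of this family, rose from 3.82 ± 0.347 to 5.33 ± 0.116 CPM (adjusted p = 0.0239, edgeR), a call lost without Th1 replicate 1 (0.0543), Th1 replicate 2 (0.101) or ALX-5407 replicate 2 (0.0586). Tigit, the inhibitory receptor that shares ligands with CD226, was at 68.9 ± 13.1 CPM in Th1 and 68.6 ± 2.05 CPM in ALX-5407. Pvr, the ligand of CD226, CD96 and TIGIT, was at 101 ± 10.1 and 90.0 ± 7.03 CPM, with an adjusted p of 0.107 (edgeR). Of 4 CD200 receptor genes, 2 were tested. Cd200r1, the receptor that binds CD200, had a log2 difference of -0.14 with an adjusted p of 0.561 (edgeR). Cd200r4, with 13 to 21 counts in Th1 and 38 to 62 in ALX-5407, rose by 1.20 on the log2 scale (adjusted p = 0.0138, edgeR), a call lost without Th1 replicate 2 (0.0623) or ALX-5407 replicate 1 (0.078).

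Of 22 genes of CD28 and ICOS signalling, all tested, 12 rose, 1 fell and 9 did not pass the test, with a median log2 fold change of 0.23. Over all genes tested, 47.7% were called, 24.5% higher and 23.2% lower, and nothing is read from the count of this list, which was drawn up with results known. Pik3cd, a catalytic subunit of phosphatidylinositol 3-kinase, rose from 505 ± 29.8 to 855 ± 32.2 CPM (SD, n = 3), a log2 fold change of 0.76 with an adjusted p of 3.8e-07 (edgeR). Pik3ca, another catalytic subunit, rose by 0.42 on the log2 scale. Pik3r1, a regulatory subunit, had a log2 difference of 0.0094 with an adjusted p of 0.945 (edgeR). Pik3ca and Pik3r1 were named after their values were seen. Akt1, a kinase downstream of phosphatidylinositol 3-kinase, rose by 0.62 on the log2 scale. Rc3h1, which encodes the Icos mRNA repressor Roquin-1, rose by 0.63 on the log2 scale, from 53.1 ± 3.14 to 82.2 ± 4.99 CPM. The gene that fell was Zc3h12a, which encodes the RNase Regnase-1, with a log2 fold change of -0.28 and an adjusted p of 0.0199 (edgeR). This call was lost with library totals only (0.0661), without a filter on low counts (0.0546) and without Th1 replicate 2 (0.0512), ALX-5407 replicate 1 (0.0609) or ALX-5407 replicate 2 (0.092).

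Among 12 transcripts known to be raised by CD28 costimulation, 5 rose and 3 fell, and the median log2 fold change was 0.03, with a range of -0.05 to 0.09 over the alternative settings. Tnf rose by 0.61 and Irf4 by 0.48 on the log2 scale. Tnfrsf9, the costimulatory receptor 4-1BB, fell from 1586 ± 66.1 to 981 ± 68.4 CPM (SD, n = 3) and Cd40lg, the ligand of CD40, from 79.4 ± 1.85 to 52.1 ± 7.03 CPM.

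Of 17 tested regulators of the B7 ligands and Cd83, 7 rose and 5 fell, with a median log2 fold change of 0.16. Prdm1, which encodes the repressor Blimp-1, rose from 19.0 ± 0.967 to 89.7 ± 8.01 CPM (SD, n = 3), a log2 fold change of 2.24 with an adjusted p of 4.47e-11 (edgeR). Foxo3 rose by 0.84 on the log2 scale, and Nfkbia, the NF-kB inhibitor, and Stat3 each had a log2 fold change of -0.61. Irf1, an inducer of Cd274, was at 131 ± 0.290 CPM in Th1 and 129.7 ± 6.32 CPM in ALX-5407. Irf1 was named after its values were seen.

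In the CD2 and SLAM family, another set of T cell costimulators, 9 of 11 genes were tested, 1 rose, 5 fell and the median log2 fold change was -0.39. Sh2d1a, the SLAM adaptor SAP, fell by 1.00 on the log2 scale, Cd2 by 0.68 and Slamf1 by 0.40. Slamf6 rose from 11.3 ± 0.663 to 21.9 ± 3.85 CPM (SD, n = 3), a log2 fold change of 0.95.

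**Figure D5:**
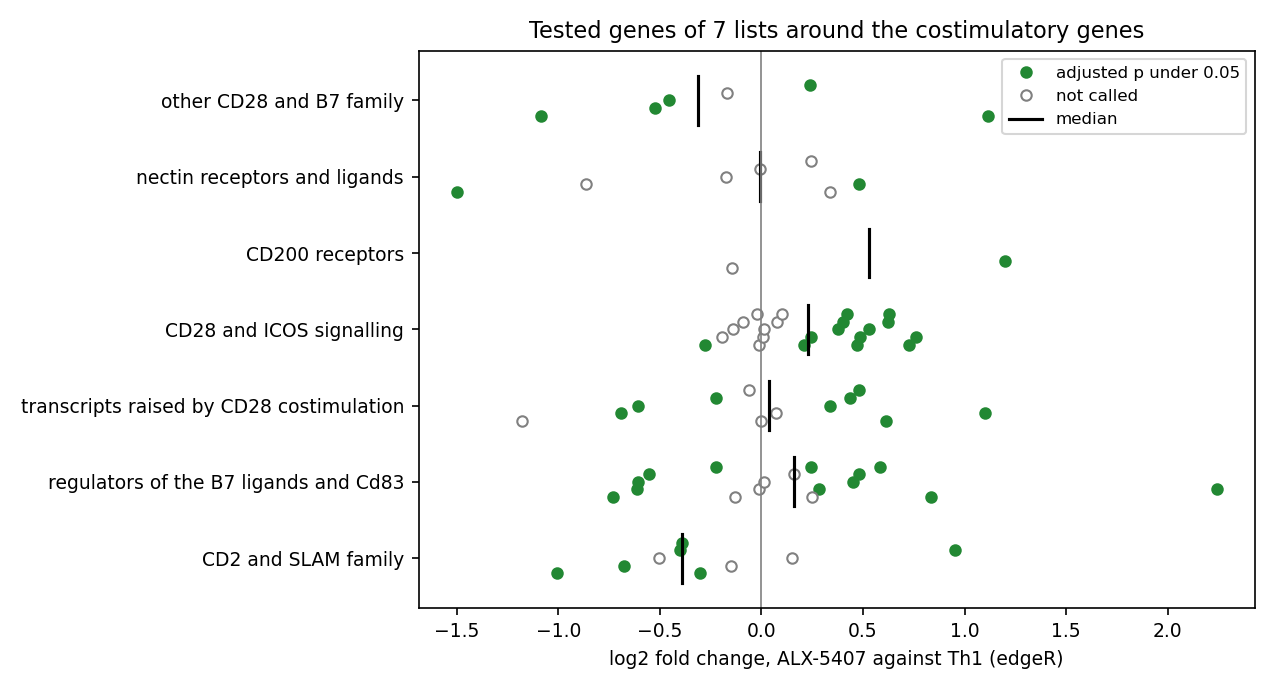
Log2 fold change of ALX-5407 against Th1 for the tested genes of the 7 pathway lists, 1 point per gene, with filled points for an adjusted p under 0.05 and a black line at each list's median. The signalling list holds 12 filled points above 0 and 1 below, and the CD2 and SLAM list 1 above and 5 below.

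Several members are best known from B cells, dendritic cells and macrophages, so markers of these cells were measured in the same libraries. The 10 B cell markers summed to 79.6 to 88.8 CPM in Th1 and 83.2 to 87.8 CPM in ALX-5407, and of 9 tested 4 rose and 1 fell. Ighm was the most abundant and made up most of these sums, at 55.3 CPM in Th1 and 62.7 CPM in ALX-5407. The median log2 fold change of the list was 0.67. Ms4a1, which encodes CD20, rose 2.41-fold, the B cell factor Pax5 1.86-fold and Cd22 1.71-fold, from 0.654, 2.15 and 2.29 CPM in Th1. Cd79a, a chain of the B cell receptor, rose 1.59-fold with an adjusted p of 0.046 (edgeR), which lay at 0.0504 to 0.214 under the 10 of 14 alternatives that lost the call. Those included every library left out except ALX-5407 replicate 3. The gene that fell was Ebf1, from 17.6 ± 1.43 to 5.71 ± 0.857 CPM (SD, n = 3).

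The 19 markers of dendritic cells and macrophages summed to 150 to 191 CPM in Th1 and 147 to 165 CPM in ALX-5407. Of these, 8 were tested, 1 rose and 2 fell, and the most abundant was H2-Ab1 with 129 ± 19.2 and 98.5 ± 10.7 CPM. H2-Ab1 thus made up most of these sums, which do not measure the share of such cells. H2-Aa was at 1.69 CPM in Th1 and 1.58 CPM in ALX-5407, H2-Eb1 at 4.45 and 4.53 CPM, and Ciita at 0.486 and 0.561 CPM. H2-Aa, H2-Eb1 and Ciita did not pass the test. Cd68 fell from 18.3 ± 3.16 to 5.44 ± 0.345 CPM and Cd74 rose from 14.1 ± 1.28 to 40.1 ± 3.76 CPM. The dendritic cell factor Zbtb46 held 81 to 118 counts in each library and the receptor Flt3 held 18 to 28, with adjusted p-values of 0.105 and 0.3 (edgeR). The defining markers Itgax, Clec9a, Xcr1, Csf1r, Adgre1, Lyz2 and Fcgr1 held 0 to 15 counts in each library, and Siglech and C1qa had 0 counts in all 6. The 7 markers of CD8 T and NK cells summed to 15.2 to 16.5 CPM in Th1 and 13.6 to 15.4 CPM in ALX-5407, of which 4 were tested, 1 rose and 2 fell. The part of other cells in the falls of Cd80, Cd83 and Cd200 was not tested.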

How the data were processed

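CD4+ T cell RNA was sequenced in 3 Th1 libraries and 3 Th1 libraries with ALX-5407. The authors deposited raw read counts per gene with a gene length in bases. The submitters' processing notes name fastp, HISAT2 2.0.5, featureCounts 1.5.0-p3 and mm10. The annotation release, the strand setting and the handling of multi-mapping reads are not given in the sources used here. The labels name poly-T beads, whereas the study's methods name ribosomal RNA depletion.

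Samples were grouped by their titles. Counts were filtered with filterByExpr (15938 of 54532 genes kept), scaled by TMM, and tested with quasi-likelihood F tests in edgeR 4.0.16 under R 4.3.3, and p-values were adjusted over all genes tested by the Benjamini-Hochberg method. The common biological coefficient of variation was 0.0978. CPM used TMM-scaled library sizes, and levels between genes were CPM per kb of the deposited gene length. The scripts were tested on simulated data. Alternatives were RLE, upper quartile and total-count scaling, no filter, a mean of at least 50 counts, DESeq2 1.42.0, limma-voom 3.58.1, a replicate block, and leaving out each library.

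The 10 members and all gene lists (7 pathway lists and 4 marker lists for T cells, B cells, dendritic cells and macrophages, and CD8 T and NK cells) were chosen with earlier results of these data known. Named were the members, up to 4 tested genes with the smallest p of each pathway list, defining and most abundant markers, the 5 genes most like Cd83, genes that overlap or neighbour a member, and Slc6a9, and other genes where stated. Neighbours were the nearest tested protein-coding genes on each side of a member. Genes that appear as dates in the name column were matched by Ensembl ID. Of 54532 gene IDs, 54409 were in GENCODE M21, which gave the exons. Results for a few listed genes are not reported here.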

Additional observations from a re-analysis of the deposited data

How the results depend on the processing

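Of 203 recomputed values, 196 kept their direction and their side of the threshold, or stayed within their tolerance. The log2 fold changes of Cd28, Cd80, Cd226, Cd96 and Cd200 kept their calls under all 14 alternatives. Cd83 had log2 fold changes of -2.71 to -2.59 with 1 library left out and of -2.71 to -2.60 under the 8 other settings. Since Cd83 was chosen by its fall in these libraries, its values, which are among the 203, are a description and give no support. The rise of Pdcd1lg2 lost its call with upper quartile scaling (log2 fold change 0.31) and without Th1 replicate 1 (0.26), ALX-5407 replicate 1 (0.35) or ALX-5407 replicate 2 (0.34). The log2 difference of Cd86 ran from -0.077 to 0.16 with 1 library left out and changed sign without Th1 replicate 3 (-0.077, adjusted p = 0.709) and without ALX-5407 replicate 2 (-0.038, adjusted p = 0.887, edgeR), and it passed the test under no setting. The number of genes called with more than a 2-fold change was 1600 as reported and 876 among genes with a mean of at least 50 counts, where 12117 genes were tested. With 1 library left out, 6550 to 7703 genes were called, 1425 to 1685 of them with more than a 2-fold change, together with 5 to 6 of the 9 members and 42 to 50 of the pathway genes, of which 47 were called as reported, and the median member level in Th1 was 13.3 to 14.9 CPM per kb (14.2 as reported). With the replicate block, 7904 genes were called, 4071 higher and 3833 lower, and 6 of the 9 members. Libraries with the same replicate number shared little deviation from their group means, with correlations of -0.0084, 0.0036 and 0.063, so the numbers were not treated as pairs. Total-count scaling moved the median log2 fold change of all genes to 0.06 and upper quartile scaling to -0.05. Cd86 rested on 206 to 356 counts and Cd96 on 129 to 264 counts in each library.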
